A study of Gallus gallus with 10 samples.

Results

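The 9 genes described here, EN1, EN2, GBX2, OTX2, PAX2, PAX5, LMX1B, WNT1 and FGF8, pattern the boundary between the embryonic midbrain and hindbrain. They were chosen by name, as members of this known gene network, with earlier results of these data known. The table they came from holds 19168 chick genes, measured in cranial neural folds by sequencing poly(A) RNA. Each had 1 row in the table. A total of 8 of the 9 averaged at least 1 FPKM (fragments normalized to transcript length and library size), the level above which genes were tested, as did 11935 genes in all. PAX5 averaged less. At stage 4 to 5 of Hamburger and Hamilton, embryos of both groups received by bilateral electroporation a morpholino, an antisense oligomer that blocks translation or splicing of an RNA, at 0.5 mM, together with 300 ng/µL of the carrier plasmid pCS2+myc. The 5 NSD3 MO libraries came from embryos given a morpholino against NSD3, a histone methyltransferase gene, and the 5 mmMO libraries from embryos given the control morpholino. Neural folds were collected at 5 to 7 somites, and each library was made from a pool of 12 embryos, out of 60 embryos per condition. Electroporation reaches the cells that take up the oligomer, and the labels do not state what share of the fold that was.

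The midbrain-hindbrain boundary, or isthmus, is a signalling centre of the early neural tube. OTX2 in the forebrain and midbrain and GBX2 in the anterior hindbrain repress each other and place the boundary, where FGF8 is secreted on the hindbrain side and WNT1 on the midbrain side. PAX2, PAX5, EN1, EN2 and LMX1B encode transcription factors that switch on around the boundary and maintain these signals. Several of the genes are also used elsewhere in the head, such as PAX2 and FGF8 in placodes and the forebrain edge, and WNT1 along the dorsal midline of the neural tube, so a level in whole folds is a sum over places.

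Library facts and the RNA level of the targeted gene were looked at before the members. Relative depth, scaled to a geometric mean of 1 and read from the steps in which low FPKM values rise, ran from 0.887 to 1.29. NSD3 averaged 17.9 ± 1.36 FPKM in NSD3 MO pools and 22.9 ± 2.29 FPKM in mmMO pools (SD, n = 5 each), and the groups did not overlap. Its log2 fold change was -0.34 (limma adjusted p 0.055), or -0.24 without mmMO replicates 4 and 5 (0.118). In the authors' deposited table NSD3 is listed as lower (-0.35, adjusted p 0.00439). Because a morpholino blocks translation or splicing, this RNA level does not measure the loss of NSD3 protein. Within the control group, mmMO replicates 4 and 5 were the highest pools in some marker lists but not in others. Their summed levels of 7 neural crest markers were 1143 and 1711 FPKM, against at most 1071 FPKM in the other mmMO pools, so replicate 4 was close to these. For 6 neural plate markers the sums were 746 and 808 FPKM, against at most 605 FPKM. For non-neural ectoderm markers they were 424 and 412 FPKM, against at most 435 FPKM. Values without these 2 pools are therefore given beside those over all libraries.

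The members covered a wide range of levels in the folds. OTX2 was the most abundant, at 227 FPKM over all libraries, above 98.7% of all genes in the table. LMX1B followed at 60.9 FPKM, then GBX2 at 24.5 FPKM and WNT1 at 24.4 FPKM, PAX2 at 12.5 FPKM, FGF8 at 7.29 FPKM, EN1 at 6.55 FPKM, EN2 at 1.47 FPKM and PAX5 at 0.131 FPKM. Most neighbours in this order kept it in 10 of 10 libraries. GBX2 exceeded WNT1 in only 4 of 10 libraries, so that pair could not be ordered. FGF8 exceeded EN1 in 5 of 5 NSD3 MO pools but in 1 of 5 mmMO pools. For 6 members the deposited values were whole multiples of 1 fragment within a tolerance of 0.1 fragment, which gives the reads behind them: 4526 fragments over the 10 libraries for GBX2, 2890 for PAX2, 1516 for EN1, 553 for FGF8, 406 for EN2 and 83 for PAX5. At equal depth EN1 came to 150 fragments per library, beside a mean count of 149 in the authors' deposited table. For PAX5 the depth was 4 to 13 fragments per NSD3 MO pool and 4 to 15 per mmMO pool.

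**Figure D1:**
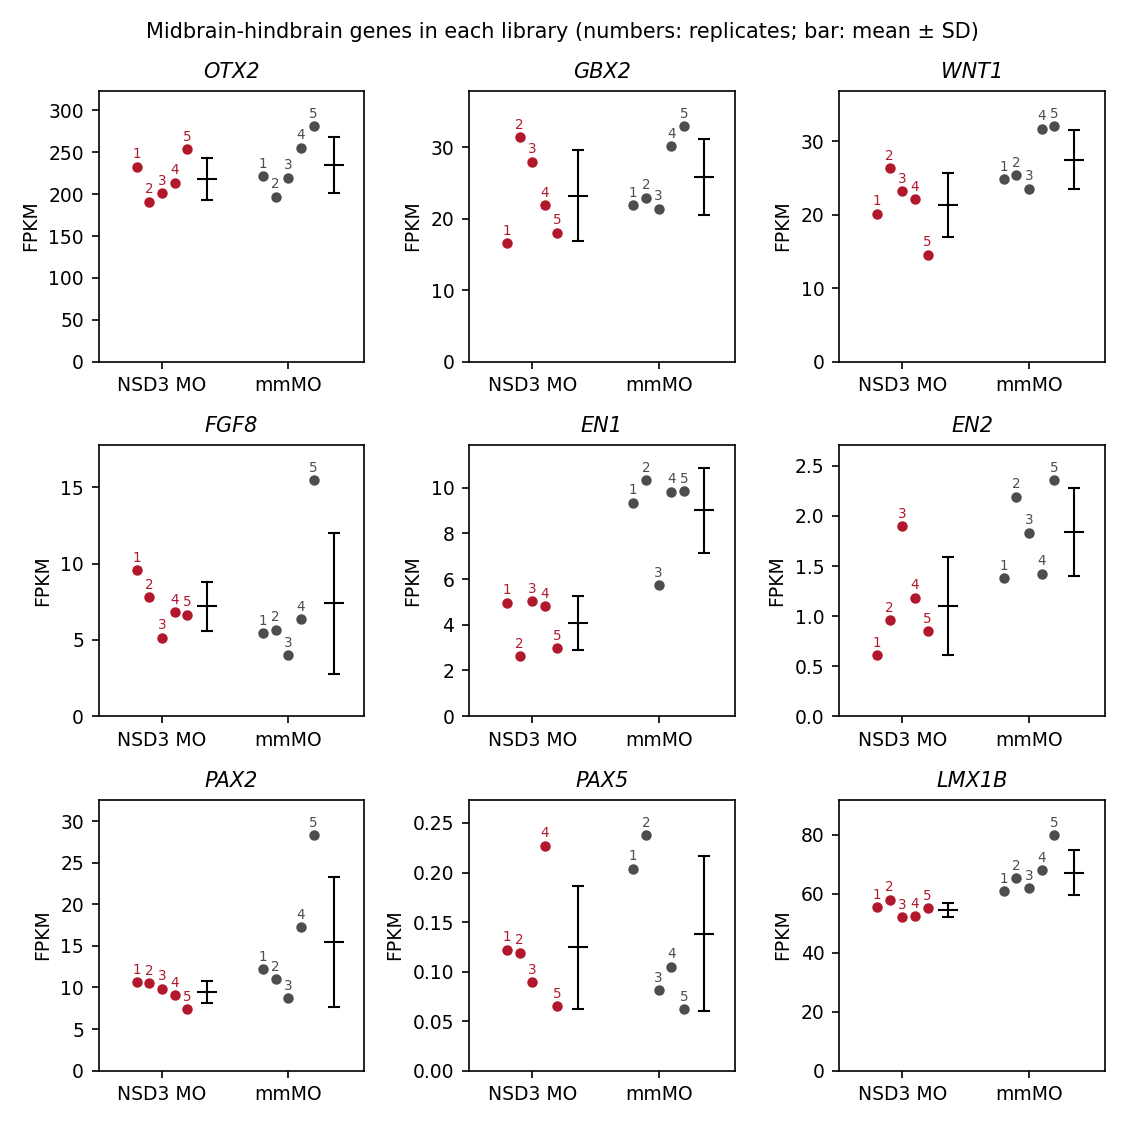
FPKM of each of the 9 genes in each library, NSD3 MO in red and mmMO in grey, with numbers marking the replicate and the bar at the right of each group showing its mean ± SD (n = 5). EN1 and LMX1B have NSD3 MO pools that all lie below all mmMO pools, and mmMO replicate 5 is the highest library for FGF8 and PAX2.

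EN1 was the 1 member called lower by limma over all libraries. Of the 8 tested members, 1 was lower and 0 were higher at an adjusted p under 0.05, where 1.02% of all tested genes were lower, 1.5% higher and 2.52% either. The test was limma on log2(FPKM + 0.5) with Benjamini-Hochberg adjustment over all 11935 genes. At an unadjusted p under 0.05, 5 members were lower, against 8.29% of tested genes, and 0 higher, against 9.78%. Groups did not overlap for 2 members, EN1 and LMX1B, both lower with the NSD3 morpholino, against 2.36% of tested genes in that direction and 3.68% in the other. The log2 fold change was below 0 for 7 of 8 members, with a median of -0.33, while 50.6% of all tested genes were below 0. The members share their libraries and some vary together between pools, so these counts are not counts of independent events. Without mmMO replicates 4 and 5, 0 members passed (1.2% of all tested genes were lower), 3 were lower at an unadjusted p under 0.05 (9.95% of tested genes), 1 was higher, FGF8 (10.4%), 5 of 8 were below 0 (51.4%) and the median was -0.18.

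EN1 encodes a homeobox transcription factor of the midbrain and anterior hindbrain and is the earlier of the paired Engrailed genes to act there in the mouse. EN1 stood at 4.97, 2.63, 5.03, 4.82 and 2.97 FPKM in NSD3 MO replicates 1 to 5, against 9.35, 10.3, 5.74, 9.83 and 9.85 FPKM in mmMO replicates 1 to 5. Every NSD3 MO pool was below every mmMO pool, and the lowest control, mmMO replicate 3, was closest to the NSD3 MO pools. The means were 4.08 ± 1.18 FPKM in NSD3 MO pools and 9.02 ± 1.87 FPKM in mmMO pools (SD, n = 5 each), a ratio of 0.453. In fragments, 471 were counted over the NSD3 MO pools and 1045 over the mmMO pools. EN1 fell by 1.07 on the log2 scale (SE 0.203, 95% interval -1.51 to -0.63), with a limma adjusted p of 0.0192. The authors' deposited table lists EN1 at -1.14, with adjusted p 1.07e-05. The limma call ended without NSD3 MO replicate 2 (-0.94, adjusted p 0.0539), without NSD3 MO replicate 5 (-0.98, adjusted p 0.0531) and without mmMO replicates 4 and 5 together (-0.97, adjusted p 0.0582), with the NSD3 MO level the lower in each. A term for replicate number in the fit also ended the EN1 call (-1.07, limma adjusted p 0.0681). In whole folds, fewer EN1-expressing cells and less EN1 RNA per cell cannot be told apart, and this holds for every gene below.

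EN2, the paralog of EN1, encodes a closely related homeobox protein and is known for its role in tectum and cerebellum development. EN2 stood at 0.608, 0.959, 1.90, 1.18 and 0.847 FPKM in NSD3 MO replicates 1 to 5, against 1.38, 2.19, 1.83, 1.43 and 2.36 FPKM in mmMO replicates 1 to 5. NSD3 MO replicate 3 lay inside the control range and the other NSD3 MO pools lay below it. The means were 1.10 ± 0.492 FPKM in NSD3 MO pools and 1.84 ± 0.440 FPKM in mmMO pools, from 147 and 259 fragments. The log2 fold change was -0.58 (95% interval -1.04 to -0.11) and EN2 was not called (limma adjusted p 0.179). It was -0.56 without mmMO replicates 4 and 5. Whether reads that match both Engrailed genes were split between them is not given in the sources used here.

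LMX1B encodes a LIM homeodomain factor that in chick can induce WNT1 and maintain FGF8 at the isthmus. LMX1B stood at 55.5, 57.9, 52.1, 52.4 and 55.0 FPKM in NSD3 MO replicates 1 to 5, against 60.9, 65.2, 62.0, 68.0 and 80.0 FPKM in mmMO replicates 1 to 5. The groups did not overlap, although the gap between the highest NSD3 MO pool and the lowest mmMO pool was small beside the spread of the controls. Its NSD3 MO values were also the tightest of any member, with a coefficient of variation of 4.36% in NSD3 MO pools and 11.4% in mmMO pools. The means were 54.6 ± 2.38 FPKM in NSD3 MO pools and 67.2 ± 7.66 FPKM in mmMO pools, a ratio of 0.813. The log2 fold change was -0.29 (95% interval -0.46 to -0.13), not called by limma (adjusted p 0.0694). The authors' deposited table lists LMX1B as lower, at -0.30 with adjusted p 0.0192. EN1 and LMX1B are the 2 members in that table, whose lower genes make up 1.65% of all genes in the FPKM table. With FPKM rescaled to equal totals, limma called LMX1B (-0.34, adjusted p 0.0364), and without mmMO replicates 4 and 5 the value was -0.20 (adjusted p 0.0927).

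PAX2 and PAX5 encode paired-box factors of the isthmus, with PAX2 the earlier to appear. PAX2 stood at 10.6, 10.5, 9.87, 9.06 and 7.39 FPKM in NSD3 MO replicates 1 to 5, against 12.2, 11.0, 8.70, 17.2 and 28.3 FPKM in mmMO replicates 1 to 5. The NSD3 MO pools sat together, while the controls spread widely and mmMO replicate 3 lay inside the NSD3 MO range. The coefficient of variation was 14.0% in NSD3 MO pools and 50.6% in mmMO pools. The means were 9.49 ± 1.33 FPKM in NSD3 MO pools and 15.5 ± 7.83 FPKM in mmMO pools, a log2 fold change of -0.57 (95% interval -1.12 to -0.01, limma adjusted p 0.264). Most of that difference came from mmMO replicates 4 and 5, which averaged 22.8 FPKM, against 10.6 ± 1.78 FPKM in mmMO replicates 1 to 3 (SD, n = 3). Without these 2 pools the log2 fold change was -0.15 (95% interval -0.46 to 0.15). PAX5 was close to the detection limit in every pool, at 0.065 to 0.227 FPKM in NSD3 MO pools and 0.062 to 0.238 FPKM in mmMO pools. From 39 fragments over the NSD3 MO pools and 44 over the mmMO pools, a difference in PAX5 was not detected (exact two-sided permutation p 0.8492). The smallest change that this depth could show was not computed.

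WNT1 and FGF8 are the secreted signals of the boundary. WNT1, a ligand of the canonical WNT pathway, stood at 20.2, 26.3, 23.2, 22.1 and 14.5 FPKM in NSD3 MO replicates 1 to 5, against 24.8, 25.4, 23.5, 31.7 and 32.1 FPKM in mmMO replicates 1 to 5. NSD3 MO replicate 2 lay inside the control range and the other NSD3 MO pools lay below it. The means were 21.3 ± 4.37 FPKM in NSD3 MO pools and 27.5 ± 4.06 FPKM in mmMO pools, a log2 fold change of -0.38 (95% interval -0.70 to -0.06, limma adjusted p 0.203). It was -0.23 (95% interval -0.57 to 0.11) without mmMO replicates 4 and 5. FGF8, the fibroblast growth factor that can give the isthmus its organizing activity, stood at 9.56, 7.79, 5.16, 6.82 and 6.65 FPKM in NSD3 MO replicates 1 to 5, against 5.46, 5.67, 4.00, 6.38 and 15.5 FPKM in mmMO replicates 1 to 5. mmMO replicate 5 was far above the other controls, with 117 fragments against 29 to 50 in mmMO replicates 1 to 4. The means were 7.19 ± 1.62 FPKM in NSD3 MO pools and 7.39 ± 4.59 FPKM in mmMO pools, a log2 fold change of 0.09 (95% interval -0.53 to 0.71, limma adjusted p 0.909). With mmMO replicates 4 and 5 left out, the FGF8 log2 fold change was 0.46 (95% interval 0.07 to 0.86), with a limma adjusted p of 0.178 and NSD3 MO the higher. FGF8 was the 1 tested member with a positive value over all libraries.

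OTX2 and GBX2 encode the homeobox factors that place the boundary. OTX2 stood at 233, 191, 201, 214 and 254 FPKM in NSD3 MO replicates 1 to 5, against 221, 197, 219, 256 and 281 FPKM in mmMO replicates 1 to 5. GBX2 stood at 16.6, 31.4, 28.0, 21.9 and 18.0 FPKM in NSD3 MO replicates 1 to 5, against 21.9, 22.9, 21.4, 30.1 and 33.0 FPKM in mmMO replicates 1 to 5. The groups overlapped for both genes, and NSD3 MO pools lay among or below the controls. OTX2 averaged 218 ± 25.1 FPKM in NSD3 MO pools and 235 ± 33.3 FPKM in mmMO pools, with a log2 fold change of -0.10 (95% interval -0.33 to 0.12, limma adjusted p 0.657). GBX2 averaged 23.2 ± 6.36 FPKM in NSD3 MO pools and 25.8 ± 5.32 FPKM in mmMO pools, with a log2 fold change of -0.17 (95% interval -0.57 to 0.23, limma adjusted p 0.673). Both stood at 0.03 without mmMO replicates 4 and 5. The interval for OTX2, the narrower of these, leaves room for changes of the size seen in LMX1B but not of the size fitted for EN1.

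**Figure D2:**
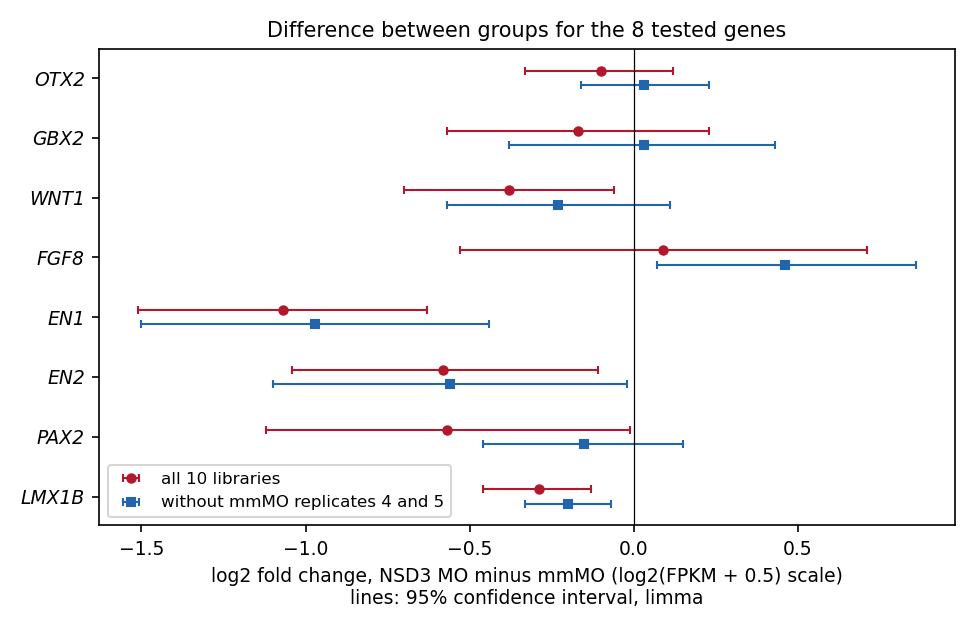
Fitted log2 fold change of the 8 tested genes, NSD3 MO minus mmMO, with 95% confidence intervals from limma, over all 10 libraries (red circles) and without mmMO replicates 4 and 5 (blue squares). EN1 lies farthest from 0 in both (-1.07 and -0.97), PAX2 moves from -0.57 to -0.15 and FGF8 from 0.09 to 0.46.

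The control pools differed among themselves more in some members than in others. mmMO replicate 5 was the highest control for 7 of the 8 tested members, all but EN1, where 28.3% of all tested genes had their highest control there. mmMO replicates 4 and 5 were the 2 highest controls for 6 members, against 26.5% of tested genes. The largest deviations from the control mean were those of FGF8 and PAX2 in mmMO replicate 5, at 1.17 and 0.97 on the log2 scale. EN1 went another way: its deviation was 0.15 in both mmMO replicates 4 and 5, and its outlying control was mmMO replicate 3, at -0.58. Among NSD3 MO pools GBX2 and WNT1 were both highest in replicate 2 and EN2 in replicate 3.

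**Figure D3:**
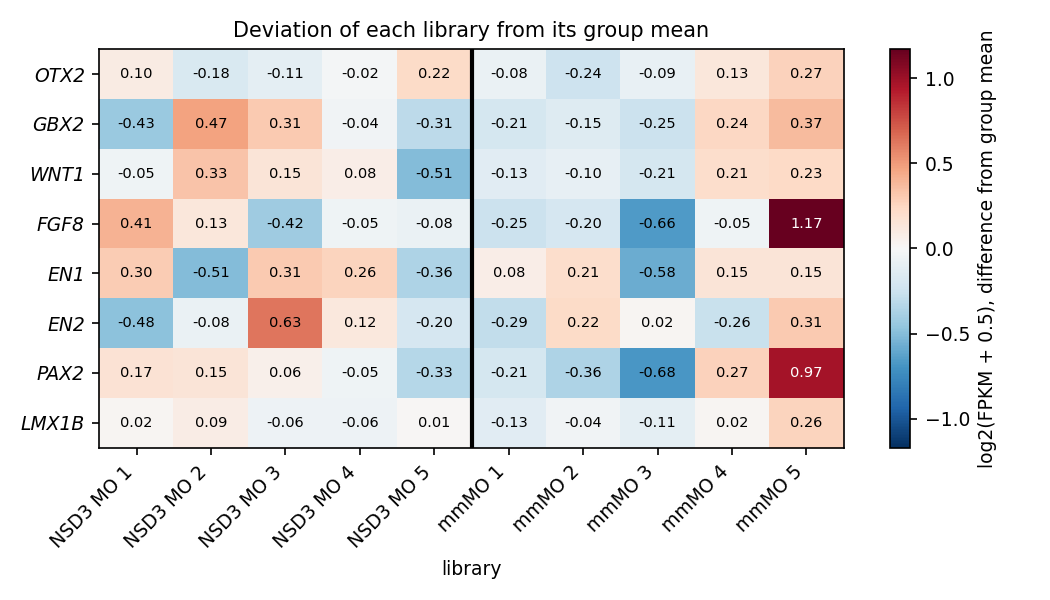
Deviation of each library from the mean of its own group for the 8 tested genes, on the log2(FPKM + 0.5) scale, with NSD3 MO libraries left of the black line and mmMO libraries right of it. mmMO replicate 5 is positive in all 8 rows, most in FGF8 (1.17) and PAX2 (0.97), and LMX1B hardly varies among NSD3 MO pools (-0.06 to 0.09).

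Ratios of members within a library were taken between values of FPKM + 0.5. The added 0.5 leaves them partly dependent on that library's scaling, most for low genes such as EN2. With 0.1 or 1 added instead, the group difference for EN1 over EN2 was -0.39 or -0.54. A total of 4 of 5 chosen pairs could be tested. The pair of PAX2 and PAX5 was left out because PAX5 was too low. The log2 ratio of OTX2 over GBX2, the opposing factors, averaged 3.24 ± 0.541 in NSD3 MO pools and 3.17 ± 0.136 in mmMO pools (SD, n = 5 each). Its difference was 0.07, with an exact two-sided permutation p of 0.8333 (0.833 after Benjamini-Hochberg adjustment over the 4 pairs). The NSD3 MO pools spread from 2.59 to 3.78, and the mmMO pools from 3.07 to 3.33. EN1 over EN2 averaged 1.53 ± 0.482 in NSD3 MO pools and 2.02 ± 0.415 in mmMO pools, a difference of -0.49 (exact permutation p 0.127, adjusted 0.381). Hence a larger fall of EN1 than of its paralog was not shown. WNT1 over FGF8 averaged 1.50 ± 0.440 in NSD3 MO pools and 1.97 ± 0.542 in mmMO pools, a difference of -0.47 (exact permutation p 0.1905, adjusted 0.381). LMX1B over WNT1 averaged 1.36 ± 0.315 in NSD3 MO pools and 1.28 ± 0.113 in mmMO pools, a difference of 0.09 (exact permutation p 0.6984, adjusted 0.833). Without mmMO replicates 4 and 5 the differences were 0.00 for OTX2 over GBX2, -0.41 for EN1 over EN2, -0.69 for WNT1 over FGF8 and 0.03 for LMX1B over WNT1, with adjusted exact permutation p from 0.286 to 1.00. None of the 4 ratios differed beyond its spread. The smallest exact permutation p that 5 pools against 5 allow is 0.007937, and 5 against 3 allow 0.0179, both before adjustment.

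Some members varied together from pool to pool once the group means were removed. Over 28 pairs and 10 libraries, 24 correlations of these deviations were positive, 6 had an unadjusted permutation p under 0.05 and 0 passed Benjamini-Hochberg adjustment by Pearson's r. LMX1B and FGF8 had r = 0.91 (exact permutation p 0.00715, adjusted 0.053; Spearman's rho 0.84, p 0.00514, adjusted 0.0719), 0.80 without the 2 libraries farthest from the LMX1B median and 0.58 without mmMO replicates 4 and 5. PAX2 and FGF8 had r = 0.88 (exact permutation p 0.00757, adjusted 0.053; rho 0.76, p 0.0203, adjusted 0.142), which fell to 0.44 without the 2 farthest libraries and so rested on them. GBX2 and WNT1 had r = 0.84 (exact permutation p 0.00507, adjusted 0.053; rho 0.87, p 0.00139, adjusted 0.0389), 0.74 without the 2 farthest libraries and 0.77 without mmMO replicates 4 and 5. PAX2 and WNT1 had r = 0.69 (exact permutation p 0.00382, adjusted 0.053; rho 0.81, p 0.0116, adjusted 0.108), 0.78 without the 2 farthest libraries and 0.70 without mmMO replicates 4 and 5. The other pairs under 0.05 before adjustment both involved PAX2. PAX2 and LMX1B had r = 0.84 (exact permutation p 0.0245, adjusted 0.114; rho 0.73, p 0.0642, adjusted 0.299), but 0.47 without the 2 farthest libraries and 0.14 without mmMO replicates 4 and 5. GBX2 and PAX2 had r = 0.63 (exact permutation p 0.0184, adjusted 0.103; rho 0.50, p 0.0938, adjusted 0.363), but 0.46 without the 2 farthest libraries and 0.33 without mmMO replicates 4 and 5. Over all libraries EN1 followed no other member closely, its highest value being 0.42 with PAX2 (exact permutation p 0.216, adjusted 0.439; rho 0.35, p 0.309, adjusted 0.619). That value was 0.30 without the 2 farthest libraries and 0.53 without mmMO replicates 4 and 5. EN1 and WNT1 had r = 0.28 (exact permutation p 0.482, adjusted 0.71), but 0.77 without the 2 farthest libraries and 0.18 without mmMO replicates 4 and 5. The EN1 values thus depended on the libraries kept. Without mmMO replicates 4 and 5, 16 of 28 pairs were positive, 3 had an unadjusted permutation p under 0.05 and 0 passed adjustment. These 3 were OTX2 and WNT1 (r = -0.92, exact permutation p 0.00278), GBX2 and OTX2 (-0.88, 0.025) and PAX2 and WNT1 (0.70, 0.0486). Over all libraries OTX2 and WNT1 stood at -0.14 (exact permutation p 0.707, adjusted 0.900, rho -0.01). GBX2 and OTX2 stood at -0.06 there (exact permutation p 0.878, adjusted 0.955).

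The gene most like each member in these deviations was sought among 10411 other named genes. PAX2 was followed most closely by PAX3, a paired-box gene of the dorsal neural tube (r = 0.989 over 10 libraries, 0.95 without mmMO replicates 4 and 5). GBX2 was followed by WNT6, a WNT ligand gene (0.966, and 0.97 without them), FGF8 by TUBB3, a neuronal tubulin gene (0.961 and 0.85), and LMX1B by NEO1, the gene of the guidance receptor neogenin (0.973 and 0.84). OTX2 went with ALDH18A1 (0.978), EN2 with NDUFAF5 (0.975) and WNT1 with MAN1A2 (0.952). EN1 went with SORT1 (0.949), DENND1A (0.932) and HYAL2 (0.928), none of which was called between groups. The highest of so many coefficients over 10 libraries is high by selection, so these values only describe these pools.

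The neighbouring parts of the network were compared by lists, chosen with earlier results of these data known. Among 8 tested midbrain and tectum genes, 2 fell, 0 rose and 6 did not pass, where 1.02% of all tested genes fell and 1.5% rose. The median of the 8 genes was -0.28 on the log2 scale, while that of all 11935 genes was -0.003. DMBX1, a homeobox gene of the midbrain, fell to 69.3 ± 12.5 FPKM in NSD3 MO pools, against 105 ± 16.3 FPKM in mmMO pools (log2 fold change -0.60, limma adjusted p 0.0393). POU4F1, a POU factor gene of midbrain and sensory neurons, fell to 1.78 ± 0.612 FPKM in NSD3 MO pools, against 3.56 ± 0.623 FPKM in mmMO pools (-0.86, limma adjusted p 0.0351). The groups did not overlap for either gene, where 2.36% of all tested genes were lower without overlap. In the authors' deposited table both are listed as lower (-0.60 and -1.02). Without mmMO replicates 4 and 5 the values were -0.60 (adjusted p 0.0584) and -0.82 (adjusted p 0.0780), and each call was lost in 7 of the 10 fits that left out 1 library. These libraries were NSD3 MO replicates 1, 2, 3 and 5 for both genes, mmMO replicates 2, 3 and 4 for DMBX1 (adjusted p 0.0569 to 0.108) and mmMO replicates 2, 4 and 5 for POU4F1 (adjusted p 0.0603 to 0.0986). PAX7, a paired-box gene of the dorsal midbrain and also of the neural plate border, averaged 20.3 ± 3.75 FPKM in NSD3 MO pools and 26.2 ± 0.727 FPKM in mmMO pools. Its limma adjusted p was 0.107, and its groups did not overlap either. The authors' deposited table lists PAX7 as lower (-0.37, adjusted p 0.0466).

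Genes of the FGF and WNT pathways, through which the isthmic signals act, were not called. Of 16 tested FGF ligands, receptors and feedback genes, 0 passed in either direction, with a median of 0.07. Of all tested genes 2.52% passed in either direction, so 0 in a list this short lies near that share. The receptor genes FGFR2 and FGFR1 came nearest: FGFR2 averaged 27.0 ± 2.60 FPKM in NSD3 MO pools and 34.3 ± 2.97 FPKM in mmMO pools (limma adjusted p 0.0575), and FGFR1 136 ± 3.89 FPKM in NSD3 MO pools and 164 ± 18.3 FPKM in mmMO pools (0.0888). Both are listed as lower in the authors' deposited table, with log2 fold changes of -0.34 and -0.27. ETV5, an ETS factor gene induced by FGF signalling, averaged 35.4 ± 3.84 FPKM in NSD3 MO pools and 42.7 ± 7.62 FPKM in mmMO pools (adjusted p 0.259). Of 13 tested WNT ligands and targets, 0 passed, again near the 2.52% of all tested genes. Their median was -0.13 and became 0.08 without mmMO replicates 4 and 5. The lowest adjusted p were those of WNT8B, a forebrain and midbrain ligand gene (2.79 ± 0.657 FPKM in NSD3 MO pools, 5.09 ± 1.44 FPKM in mmMO pools, 0.0869), SP5, a direct WNT target (66.5 ± 12.7 and 107 ± 35.4 FPKM in the same order, 0.147), and ZNRF3, a feedback inhibitor (12.9 ± 1.25 and 15.8 ± 2.57 FPKM, 0.213). WNT8B and SP5 are listed as lower in the authors' deposited table (-0.88 and -0.68). Several of these values shrank without mmMO replicates 4 and 5. On the log2 scale SP5 stood at -0.64 over all libraries and at -0.31 without them, ETV5 at -0.26 and -0.10, FGFR1 at -0.26 and -0.16, and ZNRF3 at -0.27 and -0.18. The changes for WNT8B (-0.74 and -0.56) and FGFR2 (-0.34 and -0.27) were smaller in proportion.

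**Figure D4:**
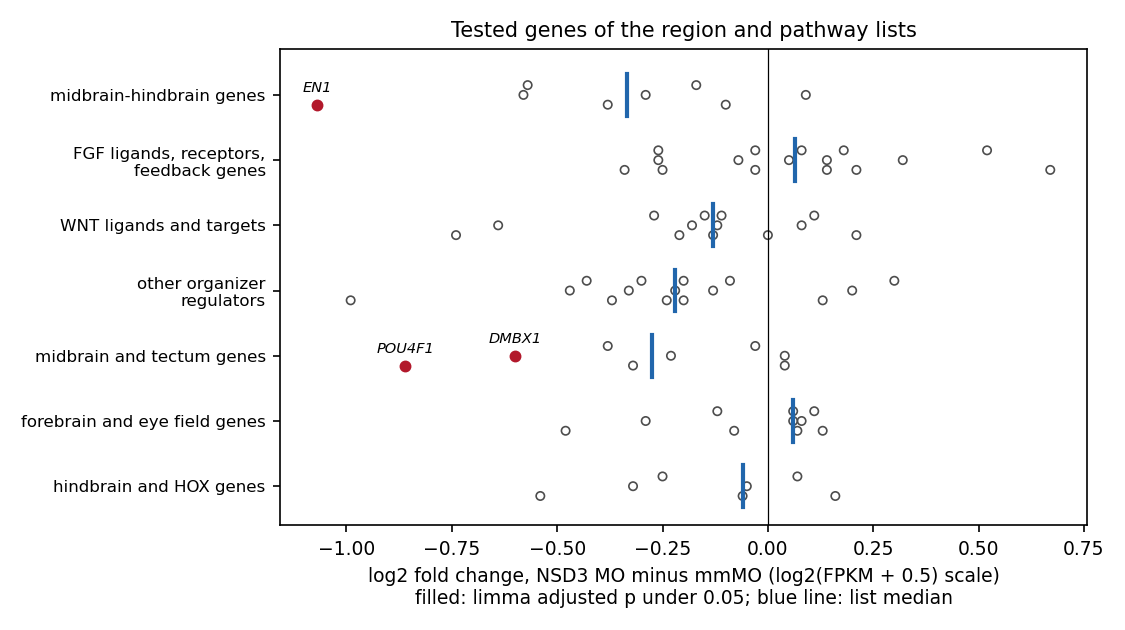
Log2 fold change, NSD3 MO minus mmMO, of each tested gene in the 7 region and pathway lists, with filled red points for genes at a limma adjusted p under 0.05 and a blue line at each list's median. The called genes are EN1, DMBX1 and POU4F1, all lower, and the medians run from -0.33 for the midbrain-hindbrain genes to 0.07 for the FGF genes.

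Lists of regulators on either side of the boundary also held no called gene. Of 15 other regulators of the organizer, 0 passed, with a median of -0.22 (-0.09 without mmMO replicates 4 and 5). Of all tested genes 2.52% passed in either direction. In lists this short 0 lies near that share, here and in the lists that follow. SP8, a zinc finger gene, averaged 20.8 ± 3.59 FPKM in NSD3 MO pools and 28.9 ± 4.74 FPKM in mmMO pools (limma adjusted p 0.103). OTX1, the paralog of OTX2, averaged 25.6 ± 2.72 FPKM in NSD3 MO pools and 33.4 ± 6.33 FPKM in mmMO pools (0.147), and MEIS2, a TALE homeobox gene of the tectum, 26.4 ± 2.17 FPKM in NSD3 MO pools and 21.5 ± 3.37 FPKM in mmMO pools (0.176). Of 10 forebrain and eye field genes 0 passed, with a median of 0.06, and the lowest adjusted p were 0.264 for BARHL2, 0.343 for PAX6 and 0.592 for FEZF2. Of 7 tested hindbrain and HOX genes 0 passed, with a median of -0.06. EPHA4, a guidance receptor gene of rhombomeres 3 and 5, averaged 66.1 ± 4.70 FPKM in NSD3 MO pools and 78.5 ± 4.87 FPKM in mmMO pools (0.0773). With FPKM rescaled to equal totals, limma called EPHA4 (-0.29, adjusted p 0.0299). EGR2, a transcription factor gene of the same rhombomeres, averaged 1.08 ± 0.354 FPKM in NSD3 MO pools and 2.01 ± 1.38 FPKM in mmMO pools (0.384), and CYP26A1, a retinoic acid degrading enzyme gene, had an adjusted p of 0.575. SP8 is listed as lower in the authors' deposited table (-0.48). Among these genes, the log2 fold changes of OTX1 (-0.37 over all libraries, -0.19 without mmMO replicates 4 and 5), EGR2 (-0.54 and -0.12) and CYP26A1 (-0.32 and -0.04) shrank most without those pools, while those of SP8 (-0.47 and -0.40), EPHA4 (-0.25 and -0.22) and PAX6 (-0.29 and -0.31) moved little.

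Markers of the cell types in the folds moved with the groups to different degrees. The marker lists were chosen with earlier results of these data known. Of all tested genes, 1.02% were called lower, 1.5% were called higher and 2.36% were lower without overlap. All 6 neural plate markers and all 7 neural crest markers were tested, and no marker of either list was at 0 in every library. The summed neural plate level ran from 516 to 577 FPKM in NSD3 MO pools and from 575 to 808 FPKM in mmMO pools, where 746 and 808 FPKM were those of mmMO replicates 4 and 5. In that list NCAM1, a neural adhesion gene, fell to 26.0 ± 1.52 FPKM in NSD3 MO pools, against 36.8 ± 3.12 FPKM in mmMO pools (limma adjusted p 0.0049), and 5 genes did not pass. ZIC2, the most abundant of them, averaged 260 ± 22.2 FPKM in NSD3 MO pools and 355 ± 73 FPKM in mmMO pools (limma adjusted p 0.0865). Its groups did not overlap, and the authors' deposited table lists it as lower (-0.45, adjusted p 0.0171). Without mmMO replicates 4 and 5 its log2 fold change was -0.23, against -0.43 over all libraries. The log2 fold changes of SOX1, SOX2, SOX3 and CDH2 were -0.01, -0.06, -0.10 and -0.00. The summed neural crest level ran from 640 to 988 FPKM in NSD3 MO pools and from 890 to 1711 FPKM in mmMO pools. In that list 2 transcription factor genes fell and 5 genes did not pass. All 7 crest log2 fold changes were below 0, with a median of -0.66, farther from 0 than the -0.33 of the midbrain-hindbrain genes. Without mmMO replicates 4 and 5 these medians were -0.43 and -0.18. TFAP2B fell to 38.3 ± 3.86 FPKM in NSD3 MO pools, against 61.2 ± 11.7 FPKM in mmMO pools (limma adjusted p 0.0141), and SOX9 to 28.1 ± 7.20 FPKM in NSD3 MO pools, against 54.1 ± 11.8 FPKM in mmMO pools (0.0333). Without mmMO replicates 4 and 5, TFAP2B stayed called (adjusted p 0.0100), as did NCAM1 (0.0128), but SOX9 did not (-0.80 on the log2 scale, limma adjusted p 0.0858), leaving 1 called crest gene. The SOX9 call also ended without any 1 of mmMO replicates 1, 2, 4 and 5 or NSD3 MO replicates 1, 2 and 4 (adjusted p 0.0538 to 0.0802). For head mesoderm the sum ran from 25.9 to 40.8 FPKM in NSD3 MO pools and from 18.9 to 24.2 FPKM in mmMO pools, without overlap. FOXC2, a forkhead gene of mesoderm, rose to 7.86 ± 1.27 FPKM in NSD3 MO pools, against 4.47 ± 0.940 FPKM in mmMO pools (limma adjusted p 0.0222), 3 genes did not pass and 4, among them TWIST1 and TBX1, were below the level tested. The FOXC2 call held without mmMO replicates 4 and 5 (0.95 on the log2 scale, limma adjusted p 0.00571) but ended without any 1 of mmMO replicates 1 and 2 or NSD3 MO replicates 1, 2, 3 and 4 (adjusted p 0.0538 to 0.0729). For non-neural ectoderm the sums overlapped (376 to 449 FPKM in NSD3 MO pools, 357 to 435 FPKM in mmMO pools), as did those of endoderm (33.1 to 45.5 and 34.3 to 48.4 FPKM in the same order) and of notochord and floor plate (20.7 to 29.1 and 24.2 to 37.6 FPKM), where SHH and FOXA2 were below the level tested. Blood and endothelial markers summed to 4.82 to 12.1 FPKM in NSD3 MO pools and 3.94 to 6.52 FPKM in mmMO pools. In these 4 lists 0 genes were called. The part of cell composition in the lower EN1, DMBX1 and POU4F1 levels was not tested.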

How the data were processed

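The authors deposited FPKM values per gene and library. Their second deposited table gives 674 genes, each with log2 fold change, adjusted p-value and mean count. Tools the authors used were DESeq2 1.28.1, STAR 2.5.3a and Trimmomatic 0.32, on build GRCg6a (galGal6), per the submitters' processing notes. Their roles, the counting tool and the annotation are not given there. Per the labels' protocols, the kit was stranded and each library was a pool of 12 embryos.

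Groups came from the sample titles. Genes averaging 1 FPKM or more were fitted as log2(FPKM + 0.5) with 1 group term by limma 3.58.1 (mean-variance trend, R 4.3.3), two-sided, with Benjamini-Hochberg adjustment. Fold changes on this scale understate changes of low genes. Values of PAX5 came from its FPKM and a permutation test. Ratios and correlations were computed in Python 3.11.15 with numpy 2.4.6 and pandas 2.3.3, with exact permutation tests, and the procedures were tested on simulated data. Fragments were read from FPKM steps, searching up to 1000 fragments per library. They cover counting error only.

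Members, 13 further lists (6 of regions and pathways, 7 of markers), pairs and alternatives were chosen with earlier results of these data known. Named genes are the members, called list genes, the neural plate markers, the 3 genes per region or pathway list with the smallest adjusted p, and the genes most alike in deviation. No sequence was used here.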

Additional observations from a re-analysis of the deposited data

Results flagged for a closer look

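Among 28 groups of 5 values checked for a single library far from the rest (each gene's FPKM and each ratio, within a group), 3 stood out, where chance flags about 1 in 20. EN1 in mmMO replicate 3 was 5.74 FPKM, with a gap to the nearest control of 0.788 of the control range, past the critical 0.71. Without that library the EN1 log2 fold change was -1.21 and its limma adjusted p 0.00758. FGF8 in mmMO replicate 5 was 15.5 FPKM, with a gap of 0.793 of the range. Without that library FGF8 stood at 0.38 on the log2 scale (limma adjusted p 0.285). The log2 ratio of WNT1 over FGF8 in mmMO replicate 5 was 1.03, with a gap of 0.747 of the range, and it shares the FGF8 value of that library. The origin of these values was not tested.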

How the results depend on the processing

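Of 20 alternatives to the limma fit, EN1 stayed lower in all and was called in 16, with adjusted p from 0.00758 to 0.0681. The 4 exceptions were the fits without NSD3 MO replicate 2, without NSD3 MO replicate 5, without mmMO replicates 4 and 5, and with the replicate block, which gave the highest adjusted p. The count of members called lower was 0 in those 4 fits and 2 with FPKM rescaled to equal totals, where genes split into 125 higher and 173 lower (41.9% higher, against 59.5%). It was 0 to 1 when single libraries were left out. Same-numbered libraries correlated over 0.1 in 2 of 5 pairs (from -0.128 to 0.34). These were replicates 1 (0.214) and 5 (0.34), each the best match of its own number in both groups, unlike replicates 2, 3 and 4. The labels do not say whether same-numbered pools were paired, and these correlations cannot decide it. With the replicate block 97 genes were higher and 62 lower, and with array weights 344 and 207, against 179 and 122. The block also ended the calls of POU4F1 (adjusted p 0.0557), TFAP2B (0.0601), SOX9 (0.0821) and FOXC2 (0.0839). Testing all genes with no filter ended those of DMBX1 (limma adjusted p 0.0635), POU4F1 (0.0601) and SOX9 (0.0573), a fit with no trend those of DMBX1 (0.0632) and SOX9 (0.0525), and array weights that of POU4F1 (0.0524). DMBX1 was called in 10 of 20 alternatives, POU4F1 in 8 of 19, SOX9 in 9, FOXC2 in 13, TFAP2B in 19 and NCAM1 in 20 of 20. Some genes not called by the limma fit were called, as lower, in a few alternatives. FGFR2 and NSD3 were called in 2 of 20, FGFR1, EPHA4 and LMX1B in 1 of 20, and WNT8B in 1 of 19. Their lowest limma adjusted p were 0.0344, 0.036, 0.0311, 0.0299, 0.0364 and 0.0139 in the same order. Leaving out 1 library gave 70 to 210 genes higher and 33 to 151 lower. Counts moved over 1.5 times without mmMO replicate 1 (114 and 73), 2 (60 lower) or 4 (108 and 60), and without NSD3 MO replicate 1 (70 lower), 2 (70 and 33), 3 (86 and 68), 4 (82 and 44) or 5 (94 and 44). Without mmMO replicates 4 and 5, GBX2 and OTX2 turned to 0.03. FGF8 ran from -0.08 to 0.38 over single libraries left out, and was negative without mmMO replicate 3 (-0.08) or NSD3 MO replicate 1 (-0.01). The OTX2 over GBX2 difference ran from -0.06 to 0.23 and that of LMX1B over WNT1 from -0.04 to 0.15, and 0 of the ratios was called in any alternative. The replicate block could not have called a ratio, as the smallest p of a sign-flip test over 5 pairs is 0.0625. With 5 pools against 3 the smallest exact permutation p is 0.0179 before adjustment, so that fit could call little. Rescaled to equal totals, 3 of 28 member pairs passed as varying together, against 0. Depth limits PAX5 and EN2 most.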
